A study of Homo sapiens with 8 samples.

Results

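The genes described here are 41 genes of DNA replication and of the passage from G1 into S phase, taken from a fixed list of symbols. The list was chosen with earlier results of these data known. Each symbol was matched to 1 Ensembl entry of the deposited count table, which holds 78899 genes. All 41 had counts in these libraries, and all 41 passed the filter on low counts, which kept 16249 genes in all. The cells were microglia, the resident macrophages of the brain, made from H1, an established human embryonic stem cell line, and marked with GFP; the labels also call them iPSC-derived. In mono-culture (4 libraries) they grew alone, fed 3 times a week with M-CSF at 10 ng/mL and IL-34 at 100 ng/mL, both ligands of the CSF1 receptor. In tri-culture (4 libraries) they grew with other cells and no added cytokine. GFP-positive cells were sorted 2 weeks after plating, 1 library per culture type from each of 4 batches. The labels do not name the partner cells, and the effects of the partners and of the missing supplement cannot be told apart.

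Before a cell copies its DNA, the origin recognition complex, CDC6 and CDT1 load the MCM helicase onto origins. CDC45 and the GINS complex then turn it into a working helicase, behind which polymerases, the sliding clamp PCNA, flap removal and ligation complete the new strands. Entry into this program is gated by D-type cyclins with CDK4 or CDK6 and by E-type cyclins with CDK2, which phosphorylate the retinoblastoma family and so release E2F factors, the activators of most replication genes. In microglia, signalling through the CSF1 receptor is a known stimulus for division.

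Libraries held 17037481 to 33363972 counts in mono-culture and 17602010 to 24491765 in tri-culture. Levels are given as CPM, counts relative to the library total, scaled by TMM, a factor that corrects for composition, and ± marks the SD of 4 libraries. The microglial and leukocyte genes PTPRC (620.1 ± 46.8 and 632 ± 61.9 CPM) and SPI1 (485 ± 49.6 and 486 ± 50.9 CPM), mono-culture first, were not called, and of 10 microglial markers 3 were higher and 1 lower (summed 3252 to 3882 and 4136 to 5380 CPM). Markers of other cells differed. Of 10 astrocyte markers, 8 were higher in tri-culture, with a summed level of 217 to 291 CPM in mono-culture libraries and 613 to 737 CPM in tri-culture libraries. GFAP stood at 0.296 ± 0.153 and 167 ± 81.1 CPM. In mono-culture most of the sum came from SLC1A3, which was not called, and S100B, which was higher (109 ± 26.5 and 124 ± 22.5 CPM). Among dividing neural progenitor markers, 5 of 6 tested were higher and NES was lower, with sums of 58.0 to 116 and 41.9 to 75.4 CPM. NES (92.2 ± 24.6 and 28.9 ± 5.10 CPM) made up most of the mono-culture sums. The sums thus do not follow the other markers. SOX2 and AQP4, defining genes of progenitors and astrocytes, had no count in any mono-culture library. In tri-culture libraries 1 to 4 SOX2 stood at 5.79, 15.6, 18.0 and 16.9 CPM and AQP4 at 11.3, 19.2, 36.0 and 26.2 CPM. The progenitor gene EOMES had no count in any library. In the neuronal list 3 of 6 tested were higher and 1 lower (sums of 26.8 to 49.8 and 28.9 to 47.8 CPM). Mesenchymal genes summed to 12.6 to 33.1 CPM in mono-culture and to 394, 10.6, 385 and 132 CPM in tri-culture libraries 1 to 4. The 3 tested did not pass, COL3A1 narrowly (edgeR log2 fold change 6.21, adjusted p = 0.0505), with no count in tri-culture library 2. COL1A1, DCN, LUM, POSTN and PDGFRB were below the filter. COL1A1 stood at 22.8, 0.0408, 46.7 and 12.7 CPM in tri-culture libraries 1 to 4, against at most 0.308 CPM in mono-culture. Pluripotency and blood progenitor markers were below the filter, at most 0.459 and 1.61 CPM summed. The part of these other cells in the results on replication genes was not tested.

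Replication and G1/S genes were lower in tri-culture more often than higher. A gene is called higher or lower when the edgeR quasi-likelihood test, adjusted over all 16249 genes by the Benjamini-Hochberg method, gave a p under 0.05. By that rule 24 of the 41 genes fell, 1 rose (CDKN1B) and 16 did not pass, against 13.0% of all tested genes lower and 13.9% higher. The same shares over all tested genes stand beside the counts by role below. The median log2 fold change (tri-culture minus mono-culture) of the 41 was -0.64, beside 0.02 over all tested genes, and 36 of the 41 fitted values were below 0. In 22 genes every tri-culture library lay below every mono-culture library, which 14.1% of all tested genes did, and in 1 gene, CDKN1B, every one lay above (15.3%). In 25 genes tri-culture was the lower library in each of the 4 batches, against 21.7% of all tested genes. The decreases ranged up to 3.13-fold, in RRM2. In bulk RNA, fewer dividing cells and less of these transcripts per cell cannot be told apart. With library size as the only scaling, the median of all tested genes moved to 0.12, and 23 of the 41 were lower and 2 higher.

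**Figure D1:**
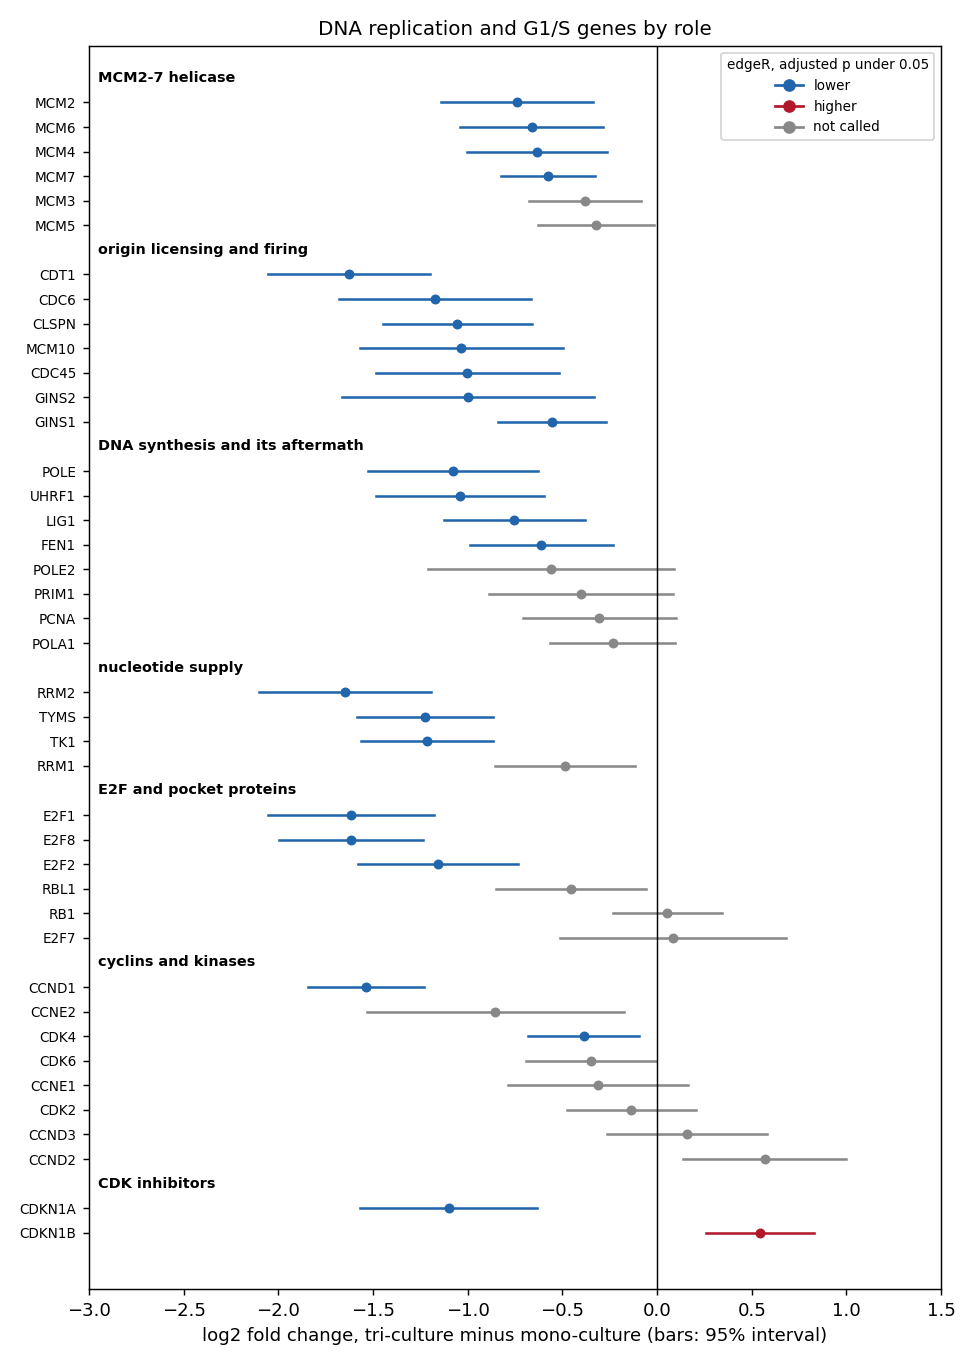
Log2 fold change of each gene (tri-culture minus mono-culture, x axis), grouped by role, with the 95% interval of the edgeR fit as a bar. Blue points are the 24 genes called lower, the red point is CDKN1B, the 1 gene called higher, and grey points are the 16 that did not pass.

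Many promoters of these genes hold the E2F element. E2F factors activate most replication genes, so a high share goes with the choice of genes and is not a result of the cultures. RefSeq promoter windows on GRCh38.p14, each from 250 bases before to 50 after a gene start, were at hand for 34 of the 41 genes. The 8-base E2F element was searched on both strands in its 4 forms, TTTCCCGC, TTTGGCGC, TTTGCCGC and TTTCGCGC, some of which can overlap on opposite strands. It was found in 19 of the 34 genes (55.9%), in 6.45% of the 11212 tested genes with a window, and in 3.99% of all 27305 genes with a window. Among the genes called lower it was present in 14 of 21 with a window, among those not called in 5 of 12, and in CDKN1B it was absent from the window. The CHR element TTTGAA, linked to later cell cycle genes, was found in 1 of the 34 (RRM1) and in 14.1% of the tested genes. A match describes the letters of the window and does not show that a factor binds there.

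The following upstream stretches show the element in 4 genes that fell and 3 that did not pass, printed 5′ to 3′ on the strand of the gene with the E2F matches in capitals. In MCM6 the matches form 2 runs in which elements on opposite strands overlap.
E2F1: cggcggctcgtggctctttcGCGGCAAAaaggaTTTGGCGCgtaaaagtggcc
E2F2: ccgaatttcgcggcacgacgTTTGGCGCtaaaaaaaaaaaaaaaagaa
MCM6: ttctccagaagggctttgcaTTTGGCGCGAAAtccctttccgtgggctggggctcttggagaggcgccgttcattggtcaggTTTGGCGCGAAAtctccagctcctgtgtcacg
UHRF1: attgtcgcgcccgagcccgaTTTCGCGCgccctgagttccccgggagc
MCM3: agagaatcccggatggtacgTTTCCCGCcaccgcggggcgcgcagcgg
PCNA: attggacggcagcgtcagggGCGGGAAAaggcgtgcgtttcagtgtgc
POLA1: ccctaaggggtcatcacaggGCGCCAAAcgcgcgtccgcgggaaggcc
The stretches lie at chr20:33686386-33686438 (minus strand), chr1:23531248-23531295 (minus strand), chr2:135876502-135876615 (minus strand), chr19:4909964-4910011 (plus strand), chr6:52284889-52284936 (minus strand), chr20:5126654-5126701 (minus strand) and chrX:24693761-24693808 (plus strand), in that order. The element was thus present both in genes that fell and in genes that did not pass: the log2 fold changes of PCNA and POLA1 were -0.31 and -0.23, against -1.62 in E2F1 and -0.66 in MCM6. UHRF1 has more than 1 RefSeq start, and the stretch belongs to the window of one of them. In E2F1, 19 bases of the stretch lie under a GENCODE 29 exon.

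All 6 helicase subunits had fitted values below 0, with a median log2 fold change of -0.61. MCM2, MCM4, MCM6 and MCM7 fell, by 1.67, 1.55, 1.58 and 1.49-fold, whereas MCM3 and MCM5 did not pass. MCM7 stood at 76.1, 82.0, 97.0 and 102 CPM in mono-culture libraries 1 to 4 and at 63.7, 56.7, 60.8 and 58.2 CPM in tri-culture libraries 1 to 4. All tri-culture values lay below the lowest mono-culture value (log2 fold change -0.58 ± 0.11 SE, adjusted p = 0.00210). MCM2 stood at 28.9, 27.3, 43.3 and 48.8 and 24.3, 22.7, 23.3 and 18.6 CPM, with mono-culture libraries 3 and 4 well above 1 and 2 and the tri-culture libraries close together (log2 fold change -0.74 ± 0.19 SE, adjusted p = 0.00949). Of the exon bases of MCM2, 23.6% lie under exons on the opposite strand in GENCODE 29, and whether the counting used strand is not given in the sources used here, so its value is less certain. MCM4 and MCM6 had adjusted p of 0.0139 and 0.0121. MCM3 was at 83.9 ± 14.9 and 64.5 ± 5.60 CPM (adjusted p = 0.0549) and MCM5 at 97.9 ± 20.2 and 78.3 ± 5.89 CPM (adjusted p = 0.119), with 95% intervals of the log2 fold change of -0.67 to -0.09 and -0.63 to -0.01. Without mono-culture library 1, the lowest of its group for both, edgeR called them lower (adjusted p = 0.00759 and 0.0219), as it did MCM3 without tri-culture library 1 (0.0488).

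Every gene of origin licensing and firing on the list fell, 7 of 7, with a median log2 fold change of -1.03. CDT1, which loads the helicase (ENSG00000167513, chromosome 16, 88803213 to 88809258), stood at 10.3, 16.2, 11.1 and 14.8 CPM in mono-culture libraries 1 to 4 and 4.32, 4.36, 4.76 and 3.43 CPM in tri-culture. The highest tri-culture library was under 5 CPM and the lowest mono-culture library above 10 CPM, a 3.09-fold decrease (log2 fold change -1.63 ± 0.20 SE, adjusted p = 4.72e-05). Its partner CDC6, an ATPase of the loading reaction, went from 12.5, 18.9, 23.1 and 29.6 to 9.65, 11.5, 8.34 and 7.74 CPM (2.25-fold lower, adjusted p = 0.00211); the mono-culture libraries spread widely and the tri-culture libraries did not. CLSPN, the fork adaptor of the ATR checkpoint, fell 2.08-fold from 27.5 ± 5.99 to 13.2 ± 2.14 CPM (adjusted p = 0.0007). The helicase activators MCM10 and CDC45 fell from 14.5 ± 5.42 to 7.06 ± 0.923 CPM and from 12.2 ± 3.26 to 6.08 ± 1.30 CPM (adjusted p = 0.00707 and 0.00441). GINS1 and GINS2 encode subunits of the same complex. GINS1 showed the smallest decrease of the 7, 1.47-fold (adjusted p = 0.00651). GINS2 stood at 8.21, 12.6, 13.9 and 17.6 and 7.26, 8.03, 7.98 and 2.75 CPM, with tri-culture library 4 far below the others (2.00-fold lower, adjusted p = 0.0283). It missed the threshold when mono-culture library 2, 3 or 4 was left out (adjusted p = 0.0596, 0.0564 and 0.0945, edgeR).

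Of 8 genes of DNA synthesis and its aftermath 4 fell, and the median log2 fold change was -0.59. The leading-strand polymerase POLE, the flap endonuclease FEN1, the ligase LIG1 and UHRF1, which brings the maintenance methyltransferase to new DNA, fell. The catalytic subunit of polymerase alpha (POLA1), the primase PRIM1, the polymerase epsilon subunit POLE2 and PCNA did not pass. POLE stood at 57.8, 50.4, 52.4 and 63.5 CPM in mono-culture and 19.6, 17.7, 35.5 and 33.5 CPM in tri-culture libraries 1 to 4. Tri-culture libraries 1 and 2 lay below 3 and 4, and all 4 lay below mono-culture (2.11-fold lower, log2 fold change -1.08 ± 0.21 SE, adjusted p = 0.00162). UHRF1, at 28.3, 40.5, 54.5 and 55.8 and 18.8, 18.6, 27.3 and 22.3 CPM, split in the same way within tri-culture and fell 2.06-fold (adjusted p = 0.00197). LIG1 fell 1.69-fold without overlap and FEN1 1.53-fold with overlapping ranges (adjusted p = 0.00523 and 0.0190). FEN1 stood at 37.2, 53.7, 48.4 and 54.8 CPM in mono-culture and 37.2, 37.5, 29.9 and 22.3 CPM in tri-culture libraries 1 to 4. Its log2 difference in batch 1 was only -0.0031. Without mono-culture library 2 or 4, FEN1 missed the threshold (0.0606 and 0.0588). PCNA went the other way within tri-culture: it stood at 80.3, 103, 96.0 and 97.6 CPM in mono-culture and 102, 87.9, 63.8 and 50.3 CPM in tri-culture, where libraries 1 and 2 lay within the mono-culture range and libraries 3 and 4 below it. Its log2 fold change of -0.31 ± 0.19 SE did not pass (adjusted p = 0.266). POLA1 had the smallest fitted change of the 8, with a 95% interval of -0.57 to 0.10. PRIM1 and POLE2 had adjusted p of 0.222 and 0.199; POLE2 passed without mono-culture library 1 (0.0129), its lowest mono-culture library at 2.53 CPM against 5.77 to 7.58 CPM in the others.

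In nucleotide supply 3 of 4 genes fell (median log2 fold change -1.22), among them RRM2, with the largest decrease of the 41. RRM2, the regulated small subunit of ribonucleotide reductase (ENSG00000171848, chromosome 2, 10120698 to 10131419), stood at 71.2, 101, 108 and 105 CPM in mono-culture and 33.0, 41.4, 29.5 and 18.5 CPM in tri-culture libraries 1 to 4. Even the highest tri-culture library lay well under the lowest mono-culture library (log2 fold change -1.65 ± 0.21 SE, adjusted p = 7.04e-05). Its pseudogene entries held 0.209% as many counts as RRM2 itself. Of the exon bases of RRM2, 20.2% lie under exons of AC007240.1 on the same strand in GENCODE 29, so its value is less certain. The large subunit, RRM1, which is the stable partner of the enzyme, stood at 55.8, 66.9, 78.4 and 79.8 and 51.2, 64.7, 48.4 and 35.7 CPM, narrowly missed the threshold (log2 fold change -0.49 ± 0.17 SE, adjusted p = 0.0506), and was called with the batch as a block (adjusted p = 0.0379) or without mono-culture library 1 or tri-culture library 2 (0.0291 and 0.0115). TK1, thymidine kinase of the salvage route, fell 2.32-fold from 27.9, 39.7, 39.3 and 42.2 to 16.1, 18.6, 16.9 and 12.6 CPM (adjusted p = 9.61e-05). TYMS, the synthase of thymidylate, fell 2.34-fold from 25.2 ± 3.14 to 10.8 ± 2.21 CPM (adjusted p = 0.000108), with 46.6% of its exon bases under exons of ENOSF1 and TYMSOS on the opposite strand.

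Of 6 E2F and pocket protein genes 3 fell (median log2 fold change -0.80). E2F1, an activator of replication genes (ENSG00000101412, chromosome 20, 33675683 to 33686404), stood at 17.7, 23.5, 25.4 and 33.0 CPM in mono-culture libraries 1 to 4 and 7.35, 6.57, 10.3 and 8.26 CPM in tri-culture. The lowest mono-culture library was above all tri-culture libraries, and the fall was 3.06-fold (log2 fold change -1.62 ± 0.20 SE, adjusted p = 5.97e-05). The activator E2F2 fell 2.23-fold to 6.02, 5.79, 5.80 and 5.51 CPM, the tri-culture values with the smallest SD relative to their mean on the list (adjusted p = 0.000616). Of the 2 atypical E2Fs, which repress the same targets later in S phase, E2F8 fell 3.06-fold, from 12.4, 15.2, 16.8 and 15.4 to 3.77, 5.06, 5.67 and 4.99 CPM (log2 fold change -1.61 ± 0.18 SE, adjusted p = 1.91e-05). E2F7 was at 3.42, 4.11, 4.62 and 6.12 and 3.44, 7.38, 4.53 and 3.90 CPM and did not pass (95% interval -0.51 to 0.68). RB1 encodes the retinoblastoma protein, which holds E2F inactive. RNA of RB1 was abundant in both groups, at 479, 486, 518 and 619 and 593, 612, 494 and 483 CPM. Its ranges overlapped, and the fitted log2 fold change was 0.05 ± 0.13 SE (adjusted p = 0.817, 95% interval -0.23 to 0.34). The related pocket protein RBL1 stood at 26.9 ± 6.25 and 19.6 ± 3.66 CPM (adjusted p = 0.0854), and was called lower without mono-culture library 1 or tri-culture library 2 (0.0268 and 0.0296, edgeR).

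Of 8 cyclin and kinase genes 2 fell, beside 13.0% of all tested genes (median log2 fold change of the 8, -0.33). CCND1, induced by growth factors (ENSG00000110092, chromosome 11, 69641087 to 69654474), stood at 138, 178, 138 and 168 CPM in mono-culture and 50.8, 44.8, 66.7 and 52.2 CPM in tri-culture libraries 1 to 4, with a wide gap between the groups. It fell 2.90-fold, with the smallest adjusted p of the list (log2 fold change -1.54 ± 0.14 SE, adjusted p = 4.77e-06). CCND2 was at 7.60, 10.9, 9.46 and 13.3 and 12.1, 13.1, 18.5 and 17.0 CPM, higher in tri-culture in 4 of 4 batch pairs though the ranges overlapped. It narrowly missed the threshold (log2 fold change 0.57 ± 0.20 SE, adjusted p = 0.0504). With the batch as a block CCND2 was called higher (adjusted p = 0.0185), as it was without mono-culture library 4 or tri-culture library 1 or 2 (0.0273, 0.0293 and 0.0480). CCND3 stood at 42.5 ± 9.95 and 47.2 ± 12.6 CPM and did not pass (95% interval -0.26 to 0.58). The kinase genes CDK4 and CDK6 had smaller fitted changes than CCND1. CDK4 stood at 84.7, 66.6, 79.7 and 71.5 and 60.2, 71.0, 52.5 and 47.8 CPM and passed by the smallest margin of all 25 calls (log2 fold change -0.39 ± 0.13 SE, adjusted p = 0.0493). It missed the threshold in 10 of 18 alternatives, among them leaving out mono-culture library 1, 3 or 4 (0.133, 0.104 and 0.0745) and leaving out tri-culture library 1, 3 or 4 (0.0611, 0.134 and 0.127). In GENCODE 29, 43.2% of its exon bases lie under TSPAN31 on the opposite strand. CDK6, a kinase with the same cyclin partners, was at 159.7, 186, 169.6 and 229.9 and 111, 133, 163 and 177 CPM (adjusted p = 0.129), and was called lower with the batch as a block (0.0284).

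The E-type cyclin genes and their kinase did not pass. CCNE1 stood at 6.78 ± 0.843 and 5.44 ± 1.42 CPM, and CDK2 at 20.1 ± 4.05 and 18.3 ± 0.915 CPM, with 95% intervals of -0.79 to 0.17 and -0.48 to 0.20. CCNE2 stood at 4.83, 7.66, 10.1 and 12.6 and 3.90, 7.71, 4.04 and 3.64 CPM, where tri-culture library 2 alone reached the mono-culture range. It did not pass (log2 fold change -0.85 ± 0.31 SE, adjusted p = 0.0617); it did with the batch as a block (0.0371) and without mono-culture library 1 or tri-culture library 2 (0.0190 and 0.0116). Exons on the opposite strand cover 37.1% of its exon bases.

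The CDK inhibitors moved in opposite directions. CDKN1A, an inhibitor induced by p53 (ENSG00000124762, chromosome 6, 36676460 to 36687339), stood at 507, 645, 377 and 439 CPM in mono-culture and 312, 263, 175 and 168 CPM in tri-culture libraries 1 to 4, a 2.14-fold fall without overlap (log2 fold change -1.10 ± 0.22 SE, adjusted p = 0.00189). CDKN1B, the inhibitor associated with resting cells (ENSG00000111276, chromosome 12, 12715058 to 12722371), stood at 58.1, 47.1, 45.3 and 47.4 and 88.6, 70.1, 67.3 and 62.1 CPM. All tri-culture libraries lay above all mono-culture libraries, with library 1 the highest of each group, and CDKN1B rose 1.46-fold (log2 fold change 0.54 ± 0.13 SE, adjusted p = 0.00776). It was the 1 gene of the 41 called higher.

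**Figure D2:**
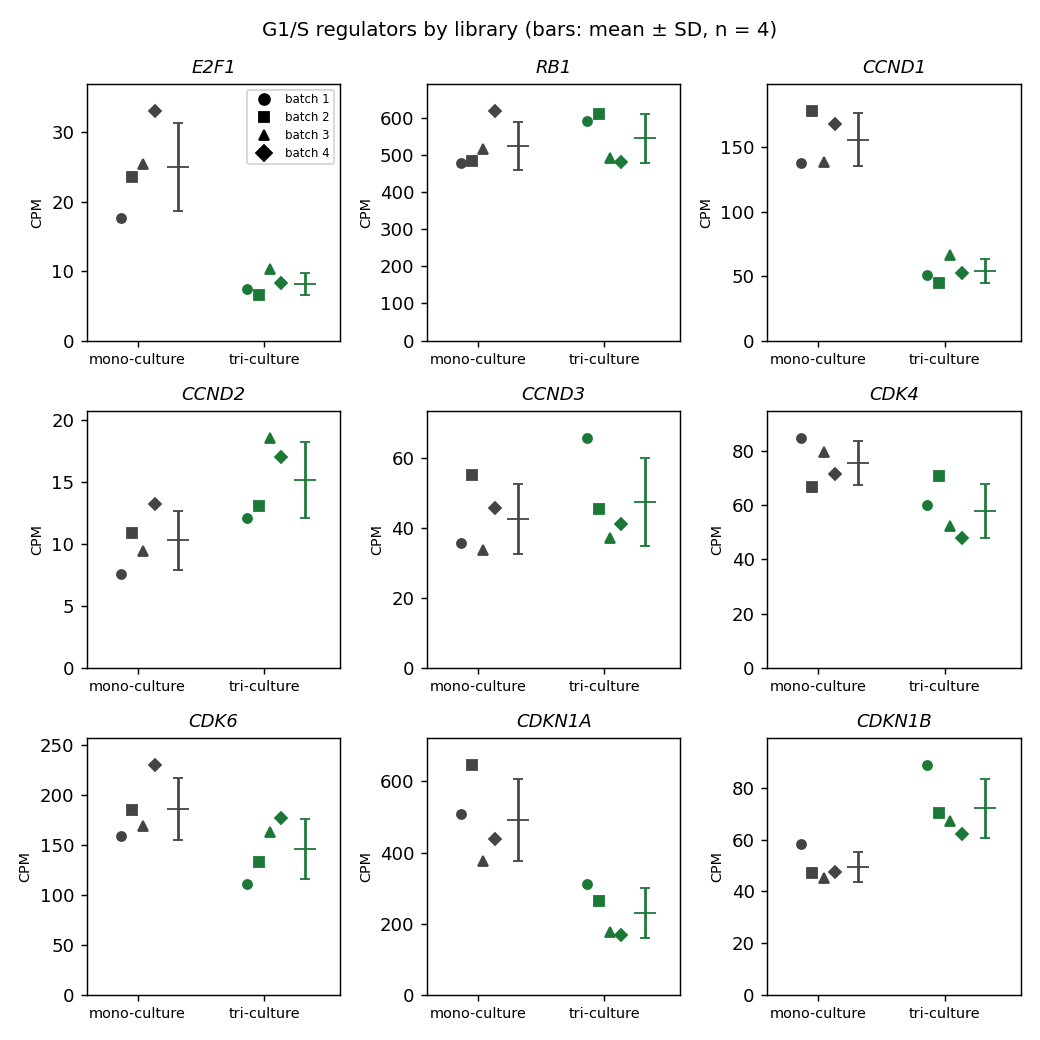
CPM (y axis, from 0) of 9 regulators of G1/S in the 4 mono-culture and 4 tri-culture libraries, with batches 1 to 4 as marker shapes and the mean ± SD beside them. E2F1, CCND1 and CDKN1A are lower in every tri-culture library, and CDKN1B is higher in every one. The ranges of RB1, CCND2, CCND3, CDK4 and CDK6 overlap.

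Wider lists of the same pathway held 92 tested genes, of which 26 fell and 5 rose, beside 13.0% lower and 13.9% higher over all tested genes. Of 58 tested further replication genes, 16 fell and 42 did not pass, with a median log2 fold change of -0.24. The 5 with the smallest adjusted p were the maintenance methyltransferase DNMT1 (369 ± 51.8 to 182 ± 50.6 CPM, 2.02-fold lower, adjusted p = 0.000976), the histone chaperone ASF1B (log2 fold change -0.83), the fork protein TIMELESS (-0.61), the origin firing factor TICRR (-1.15) and DTL, a receptor of the ligase that destroys CDT1 in S phase (-0.96). Among 34 tested further G1/S control genes, 10 fell and 5 rose, the latter close to the share over all tested genes, with a median of -0.20. CDKN2B, an inhibitor of CDK4 and CDK6, stood at 39.9, 51.1, 49.6 and 34.1 and 5.05, 9.34, 5.17 and 4.00 CPM, a 7.37-fold fall without overlap (log2 fold change -2.88 ± 0.24 SE, adjusted p = 2.34e-06). The related inhibitors CDKN2A and CDKN2C fell 3.11-fold and 1.62-fold (adjusted p = 0.00141 and 0.00642). The transcription factor genes MYC and MYCN fell 1.54-fold and 3.33-fold (adjusted p = 0.00219 and 0.00305). MYCN was low in both groups, at 2.52 ± 0.777 and 0.753 ± 0.230 CPM, where MYC stood at 33.5 ± 1.66 and 21.8 ± 2.99 CPM. The 5 that rose were TFDP2, a partner of E2F proteins (16.5, 13.4, 16.4 and 16.8 to 35.8, 36.2, 30.6 and 31.3 CPM, log2 fold change 1.08, adjusted p = 3.31e-05), RBL2, the pocket protein of resting cells (1.47-fold), the inhibitor CDKN1C (2.22-fold), SKP2, which targets CDKN1B for destruction (1.42-fold), and E2F5, a partner of RBL2 (1.71-fold, adjusted p = 0.0426). E2F5 missed the threshold with any mono-culture library left out (adjusted p = 0.0572, 0.0695, 0.0940 and 0.119), with tri-culture library 3 or 4 left out (0.110 and 0.142) and with the batch as a block (0.0581). Over both lists, with library size as the only scaling, 24 fell and 10 rose.

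Within groups, the libraries were not equally high. In mono-culture, library 1 held the lowest value for 32 of the 41 genes and library 4 the highest for 25. In 28 of the 41 genes (68.3%) both libraries 1 and 2 lay below both libraries 3 and 4, which 20.9% of all tested genes did. Tri-culture showed no such common order: libraries 1 and 2 lay below 3 and 4 in 10 genes (among them POLE, LIG1, UHRF1, E2F1, CCND1, CCND2 and CDK6) and above them in 17 (among them PCNA, FEN1, TYMS, RRM1, RRM2, CDK4 and CDKN1A), beside 31.9% and 31.0% of all tested genes. Library 4 was the lowest tri-culture library for 25 genes. The difference between culture types varied with the batch. The median log2 difference of the 41 genes was -0.31 in batch 1, -0.43 in batch 2, -0.87 in batch 3 and -1.16 in batch 4, where the median over all tested genes lay between -0.0053 and 0.028. Tri-culture was the lower library in 29, 31, 38 and 39 of the 41 genes in batches 1 to 4, and in 47.9%, 48.6%, 50.4% and 48.3% of all tested genes. Each batch holds 1 library per group, so these differences carry no test.

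**Figure D3:**
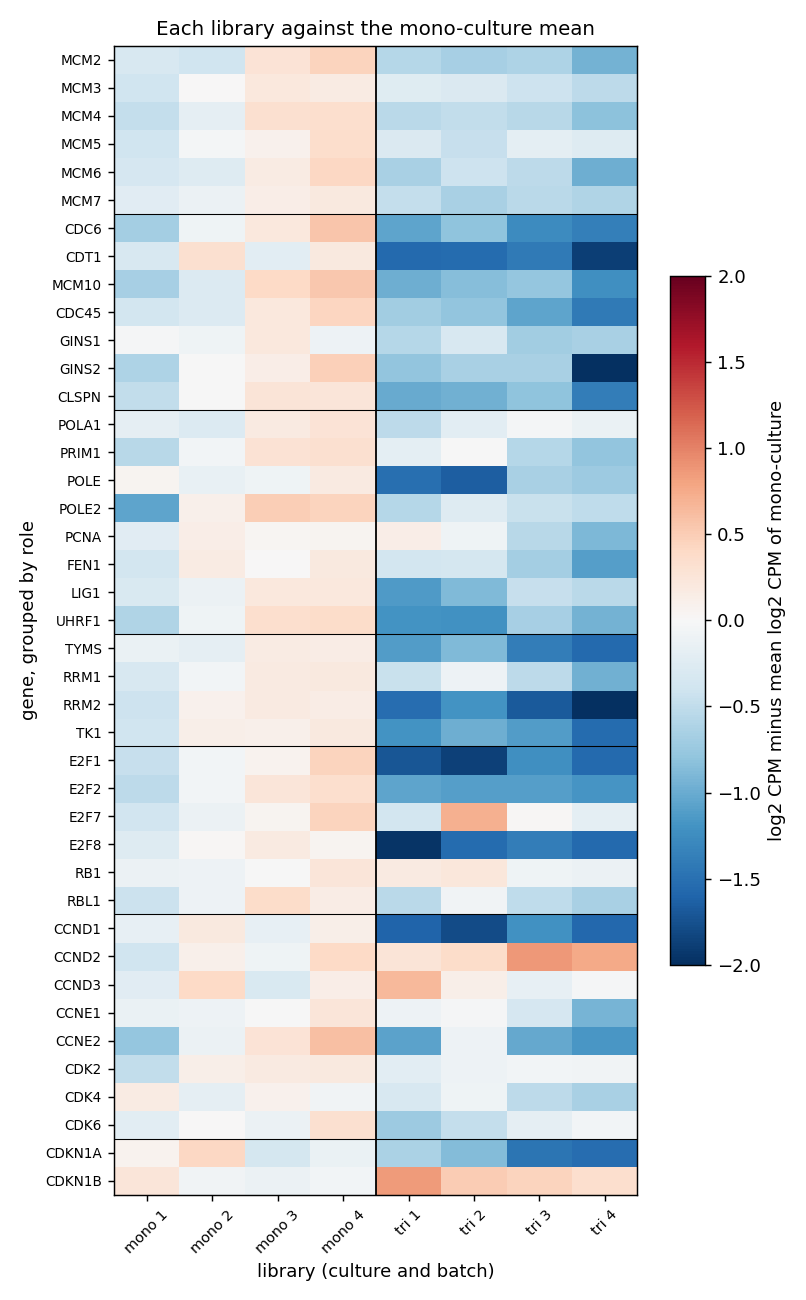
Log2 CPM of each gene (rows, grouped by role) in each library (columns, culture type and batch) minus the mean of the 4 mono-culture libraries. Blue cells are below that mean and red cells above; mono-culture library 1 is pale blue for most genes, and tri-culture library 4 holds the lowest tri-culture value for 25 of the 41.

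Levels between genes were compared on the deposited TPM values, which are scaled for gene length and rescaled per library by the authors. On that scale RB1 (287 ± 36.4), CDKN1A (243 ± 54.2) and PCNA (222 ± 20.3) led in mono-culture; the libraries of CDKN1A overlapped those of both others, which did not overlap each other. CCND1 followed at 117 ± 14.2, apart from both its neighbours in this order. In tri-culture RB1 (299.7 ± 37.5) led, PCNA (181 ± 55.9) and CDKN1A (114 ± 34.8) came next with overlapping libraries, and CCND1 was at 40.6 ± 7.19, close to CDK6 at 41.6 ± 8.37. The 6 helicase subunits, which act as 1 ring, ranged from 27.2 ± 7.90 (MCM2) to 77.8 ± 13.6 (MCM3) in mono-culture and from 16.4 ± 1.92 to 60.2 ± 5.43 in tri-culture. Among D-type cyclins, CCND1 was above CCND3 (26.4 ± 5.85) and CCND2 (4.47 ± 1.02) in mono-culture; in tri-culture CCND3 was at 29.6 ± 7.80 and CCND2 at 6.65 ± 1.35. The lowest level of the list was that of E2F7 in both groups (2.60 ± 0.658 and 2.77 ± 1.04), where CCNE2 lay next to it in tri-culture at 2.79 ± 1.14 and overlapped with it.

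**Figure D4:**
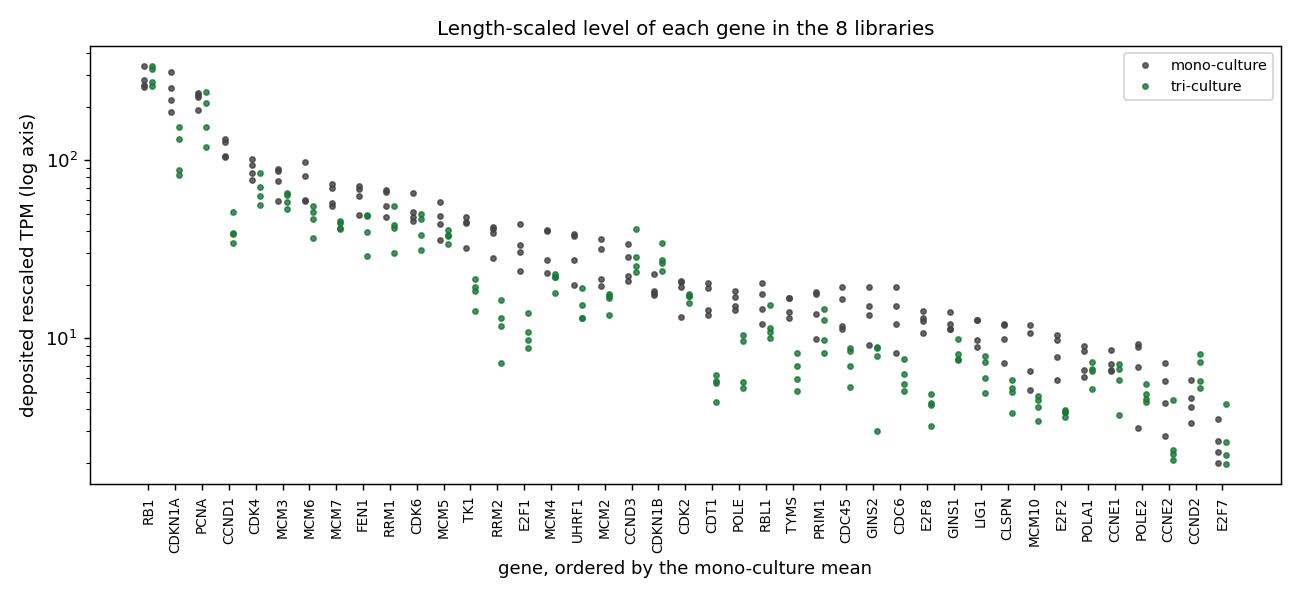
Deposited rescaled TPM (log axis) of each of the 41 genes in the 4 mono-culture (grey) and 4 tri-culture (green) libraries, ordered by the mono-culture mean. Levels span from RB1 at 287 ± 36.4 to E2F7 at 2.60 ± 0.658 in mono-culture.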

How the data were processed

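RNA of sorted microglia was sequenced in bulk. The deposited count values are whole reads per gene. Per the submitters' processing notes the tools were HISAT2 2.1.0 and featureCounts 2.12.3 and the build GRCh38; neither strand use nor annotation release is given in the sources used here. The second deposited table, named TPM by the authors, holds a signal whose totals differ between libraries, so it was treated as TPM rescaled by an unstated factor.

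Symbols were matched to Ensembl entries through a table of names, taking the entry with the most counts. Genes were filtered with filterByExpr (minimum count 10, minimum total count 15) and tested with edgeR 4.0.16 (R 4.3.3; TMM, quasi-likelihood, robust, group only) on all 8 libraries, with Benjamini-Hochberg adjustment. SEs were approximated from the log2 fold change and its F statistic, and 95% intervals derive from them, unadjusted for the number of genes. The fit was tested on simulated data. The 41 genes and the wider lists were chosen with earlier results of these data known. All 41 are described, and of each wider list the 5 called genes per direction with the smallest adjusted p. Coordinates are from GENCODE 29 on GRCh38 and promoters from RefSeq on GRCh38.p14.

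Batch numbers 1 to 4 in the labels recur in both groups, which pairs the libraries. Within pairs, deviations from the mean of the group had correlations of 0.185, 0.127, 0.264 and 0.0796. Replicates differed by more than sampling noise (chi-square per degree of freedom 9.21 to 65.1). The labels call the batches independent; whether a batch is a separate differentiation is not given in the sources used here, so p-values measure only the spread between batches, which may be technical. Alternatives were DESeq2 1.42.0, its size factors, library size only, other filters, limma 3.58.1 on log2 of the deposited signal plus 1 or 0.1, the batch as a block, and each library left out.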

Additional observations from a re-analysis of the deposited data

Results flagged for a closer look

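In 4 of 82 groups of 4 libraries (41 genes, 2 culture types), 1 library stood apart from the other 3 by more than 0.829 of the range of the group; chance flags about 1 in 20 groups. GINS2 was at 2.75 CPM in tri-culture library 4, where the others held 7.26 to 8.03 CPM. CCNE2 was at 7.71 CPM in tri-culture library 2, against 3.64 to 4.04 CPM in the others. In mono-culture library 1, CDK2 was at 14.1 CPM, against 21.5 to 22.6 CPM, and CDKN1B at 58.1 CPM, against 45.3 to 47.4 CPM.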

How the results depend on the processing

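Of the 25 calls among the 41 genes, 18 held in all 18 alternatives run. Without tri-culture libraries 3 and 4, a setting chosen with the values known, MCM2, MCM4, MCM6, GINS1, FEN1 and CDK4 missed the threshold (adjusted p = 0.0583, 0.0852, 0.0663, 0.0504, 0.0986 and 0.300), as did CDKN2C and E2F5 of the wider lists (0.0520 and 0.446). FEN1, CDK4 and GINS2 also missed it in other alternatives; of the 16 genes not called, 10 were called in at least 1. The number lower was 24; it was 27 with DESeq2, 25 with its size factors, 23 with library size only, 28 without a filter, 27 with the batch as a block and 21 to 29 with 1 library left out. The number higher was 1, and 2 with library size only, without a filter, with a mean of at least 1 CPM, with DESeq2 and with the batch as a block, and 1 to 2 with 1 library left out; the second gene was CCND2. The block added RRM1, CCNE2, CDK6 and CCND2, removed E2F5 from the wider lists, and changed no other call among the genes named. Without tri-culture libraries 1 and 2, also chosen after seeing the data, 30 were lower and 2 higher; without libraries 3 and 4, 19 were lower and 1 higher. Of the wider lists, 5 were higher, 10 with library size only, 10 without tri-culture libraries 3 and 4, and 4 to 6 with 1 library left out. Signs turned in 4 genes, none of them called with all 8 libraries: E2F7 (log2 fold change -0.20 to 0.25 with 1 library left out, below 0 without mono-culture library 1 at -0.03 or tri-culture library 2; -0.12 without tri-culture libraries 1 and 2), RB1 (-0.0084 to 0.14, below 0 without tri-culture library 2; -0.12 without 1 and 2), CCND3 (-0.046 to 0.30, below 0 without tri-culture library 1; -0.13 without 1 and 2) and PCNA (0.020 without tri-culture libraries 3 and 4). Without tri-culture libraries 1 and 2, edgeR called PCNA lower (log2 fold change -0.74, adjusted p = 0.000992). For these values the cause was not tested. The widest intervals of the 41 were those of CCNE2, GINS2, POLE2 and E2F7.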
